A study of Mus musculus with 12 samples.

Results

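The CXC chemokines are small secreted proteins that steer migrating cells, and 8 of their genes are described here: Cxcl1, Cxcl2, Cxcl5, Cxcl9, Cxcl10, Cxcl12, Cxcl14 and Cxcl16. They were taken by symbol from the conditioned medium table and matched by Entrez identifier to the deposited expression values, and all 8 were found among 21187 genes. The cells were C2C12 myotubes, multinucleated muscle cells that form when this mouse myoblast line is kept in differentiation medium, here for 3 days. Myotubes received mouse leukemia inhibitory factor (LIF), which signals through gp130 and STAT3, at 10 ng/ml for 4, 8 or 24 h, or conditioned medium of C26 cells, a mouse colon carcinoma line, at 1/3 of the volume in differentiation medium for the same times. Each agent had its own untreated myotubes at each time. Every array held the pooled RNA of 3 wells, there was 1 array per arm and time and 12 in all, and all came from a single cell line. No difference at a single time has a replicate check.

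CXC chemokines share a pair of cysteines separated by 1 residue and act through receptors coupled to G proteins. Ligands that carry a glutamate, leucine and arginine motif before the cysteines (Cxcl1, Cxcl2 and Cxcl5) bind Cxcr2 and attract neutrophils, and their genes are classical targets of NF-kB. Cxcl9 and Cxcl10 bind Cxcr3, attract T cells and natural killer cells, and are induced by interferons. Cxcl12 binds Cxcr4 and the scavenger receptor Ackr3 and guides stem and progenitor cells, muscle precursors among them. Cxcl14 is a ligand of tissues at rest, and Cxcl16 is made as a membrane protein that binds Cxcr6 and can be shed by Adam10.

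Values are log2 expression, 1 per gene and array. The median array level was 5.5 or 6 in the LIF experiment and 6.14 to 6.74 in the conditioned medium experiment, with the 24 h arrays lower. Each difference was therefore taken against the untreated array of the same agent and time. Where treated and untreated values are compared across times, this shift of array level was not removed. LIF values were deposited with 1 decimal, which leaves an error of up to 0.1 in a LIF difference. The background range of an array was taken from 1288 smell and pheromone receptor genes and ends at their 95th percentile, between 4.5 and 5.14. All 10 myotube markers lay above it on all 12 arrays. The leukocyte markers Ptprc, Adgre1, Csf1r, Itgam, Ly6g, Ncr1 and Lyz2 lay within it on all 12, and 2 or 3 of the 10 leukocyte markers lay above it on any array. In bulk RNA, fewer cells that express a gene and less RNA per cell cannot be told apart.

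Promoters of 6 of the 8 genes were matched in a RefSeq table (build GRCm38.p6, 250 bases before to 50 after the start), and 4 are shown because they hold different sets of the 3 motifs searched. Capitals mark matches on either strand to a kB-like motif (GGGA, any 2 bases, TTCC), an interferon element-like motif (GAAA, any 2 bases, GAAA) or a STAT-like motif (TTC, any 3 bases, GAA). Cxcl1 lies at chr5:90890995-90891294 (plus strand), Cxcl10 at chr5:92348840-92349139 (minus strand), Cxcl12 at chr6:117168285-117168584 (plus strand) and Cxcl14 at chr13:56296502-56296801 (minus strand).
Cxcl1: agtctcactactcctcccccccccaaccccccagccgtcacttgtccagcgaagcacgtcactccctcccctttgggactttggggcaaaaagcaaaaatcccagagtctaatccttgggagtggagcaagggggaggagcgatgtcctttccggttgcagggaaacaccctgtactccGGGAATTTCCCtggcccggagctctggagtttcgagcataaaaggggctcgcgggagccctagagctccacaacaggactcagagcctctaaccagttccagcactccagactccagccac
Cxcl10: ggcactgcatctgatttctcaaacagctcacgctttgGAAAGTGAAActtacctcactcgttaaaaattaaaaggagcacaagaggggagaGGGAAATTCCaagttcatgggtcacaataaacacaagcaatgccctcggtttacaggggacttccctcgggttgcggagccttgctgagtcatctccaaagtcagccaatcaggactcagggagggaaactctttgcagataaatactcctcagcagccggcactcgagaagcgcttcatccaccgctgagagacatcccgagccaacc
Cxcl12: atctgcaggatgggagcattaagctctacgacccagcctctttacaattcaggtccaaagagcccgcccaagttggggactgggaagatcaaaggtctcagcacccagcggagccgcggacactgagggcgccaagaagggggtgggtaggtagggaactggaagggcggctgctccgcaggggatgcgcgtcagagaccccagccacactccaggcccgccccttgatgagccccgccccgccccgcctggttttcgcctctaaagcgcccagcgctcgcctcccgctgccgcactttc
Cxcl14: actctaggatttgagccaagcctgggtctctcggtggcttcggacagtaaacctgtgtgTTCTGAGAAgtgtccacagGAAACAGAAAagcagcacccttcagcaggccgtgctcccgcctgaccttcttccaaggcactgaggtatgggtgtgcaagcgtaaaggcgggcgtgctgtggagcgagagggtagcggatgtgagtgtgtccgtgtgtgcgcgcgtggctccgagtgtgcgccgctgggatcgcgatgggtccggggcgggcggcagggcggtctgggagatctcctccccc
The kB-like motif stood in Cxcl1 from base -71, overlapping its match on the other strand by all but 1 base, in Cxcl2 from -97 in the same way, and in Cxcl10 from -159, counted with -1 as the base before the start. It stood in 1.47% of all 32851 promoters of the table. The interferon element-like motif stood in Cxcl10 from -213 and in Cxcl14 from -172, and in 3.44% of all promoters. The STAT-like motif stood in Cxcl14 from -191 and in 8.3% of all promoters, and no 2 motif kinds overlapped in a member. Cxcl12 and Cxcl9 held none of the 3 in this window.

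Of the 8 genes, Cxcl5, Cxcl12 and Cxcl14 were higher in treated than in untreated myotubes at all 3 times with both agents, as were 1.36% of all genes (288 of 21187). Their differences were widest at 24 h, with the exception of Cxcl5 under LIF, which was widest at 8 h. Cxcl1, Cxcl2, Cxcl9, Cxcl10 and Cxcl16 stayed within 0.44 of their untreated level at every time with either agent.

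**Figure D1:**
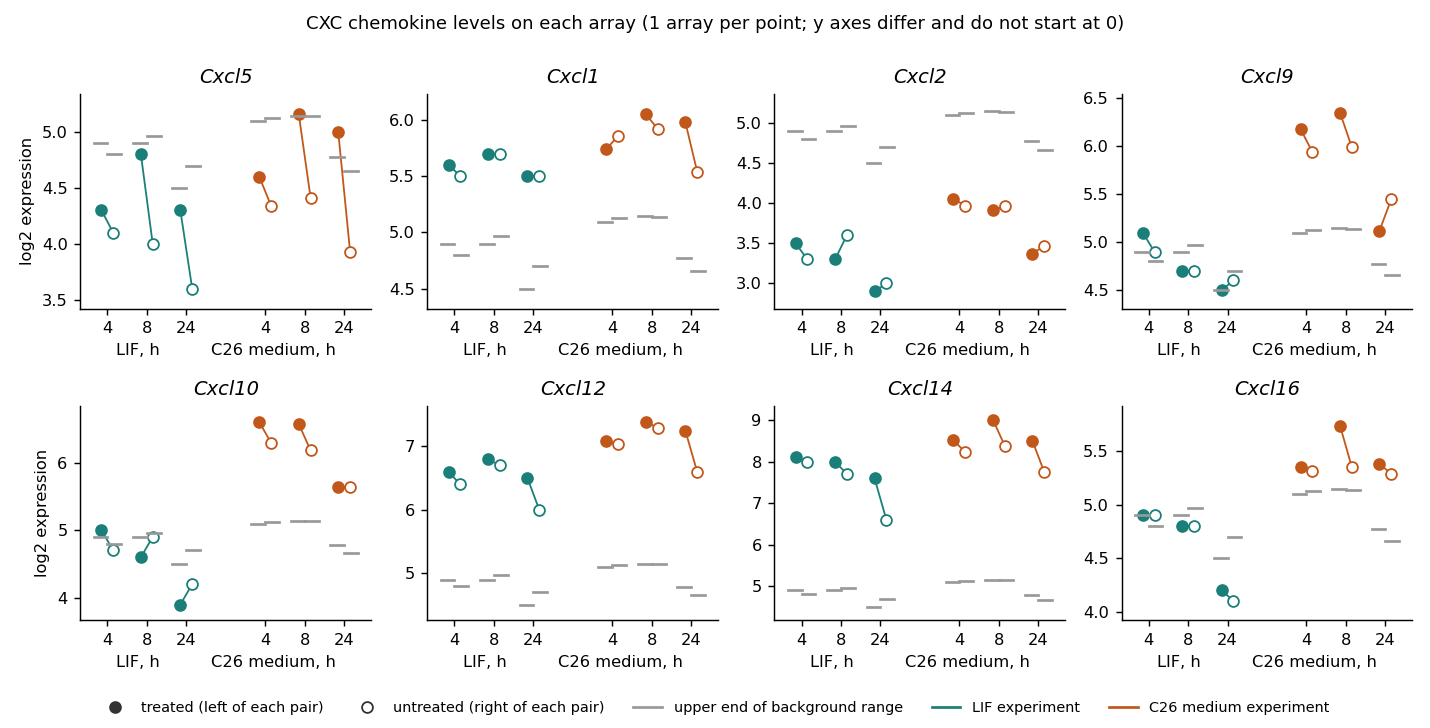
Log2 expression of the 8 CXC chemokine genes on each of the 12 arrays (y axis, log2 units, not starting at 0 and different in each panel) by time in h, for LIF (green) and C26 conditioned medium (orange), with treated arrays as filled points left of untreated arrays as open points. Grey bars mark the upper end of each array's background range. Cxcl2 lay under the bars throughout, Cxcl12 and Cxcl14 above them throughout, and Cxcl5 crossed them in 2 of the 6 treated arrays.

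Among the neutrophil attractants Cxcl5 was the only one that was higher with either agent at every time. With LIF it stood at 4.3, 4.8 and 4.3 after 4, 8 and 24 h, against 4.1, 4.0 and 3.6 in untreated myotubes, differences of 0.2, 0.8 and 0.7. With conditioned medium it stood at 4.60, 5.16 and 5.0, against 4.34, 4.41 and 3.93 in untreated myotubes, differences of 0.26, 0.75 and 1.07. All 3 treated values lay above all 3 untreated values in each experiment, with array levels not adjusted between times. At 8 h with LIF 26 genes of 21187 were at least as high in their difference as Cxcl5, and at 24 h with conditioned medium 40 genes were. Both counts include Cxcl5 itself and any ties. The untreated values, all 6, and all 3 LIF values lay in the background range, and the conditioned medium values at 8 and 24 h lay above it, at 5.16 against a limit of 5.14 and at 5.0 against 4.78. The fold of 2.10 at 24 h with conditioned medium is therefore taken from an untreated value that may not hold signal of the gene. In untreated myotubes the 8 h value differed from the 4 h value by -0.1 and 0.07.

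Averaged over the times, the Cxcl5 difference was 0.57 ± 0.15 (SE) with LIF and 0.69 ± 0.15 with conditioned medium. Neither passed limma over all genes (adjusted p of 0.409 and 0.15). This fit takes 4, 8 and 24 h as repeats, which they are not. Its p sets the mean difference against a spread between times that was pooled over both agents and moderated across genes. A large p can also come from a small difference that was alike at all 3 times. Averaged over both agents, a contrast added after the values were seen, Cxcl5 rose by 0.63 ± 0.11 with an adjusted p of 0.0441, and it was the only member among the 107 genes called (0.505% of all genes). At an unadjusted p under 0.05 Cxcl5, Cxcl12 and Cxcl14 passed there, as did 9.36% of all genes. The call was lost without 4 h (0.83, adjusted p of 0.14), without 8 h (0.56, adjusted p of 0.978) and without 24 h (0.50, adjusted p of 0.612), and limma called 0 of all genes in each of these smaller fits. It was also lost without a variance trend (0.128), with robust variances (0.0507) and on the authors' deposited table of fold changes (0.0633), and the adjusted p went as low as 0.0348 over the 8 alternatives that kept the gene, which both filters on dim genes removed.

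The other neutrophil attractants, Cxcl1 and Cxcl2, passed limma with neither agent. Cxcl1 was above background on all 12 arrays and stood at 5.6, 5.7 and 5.5 with LIF, against 5.5, 5.7 and 5.5 in untreated myotubes at 4, 8 and 24 h. With conditioned medium it stood at 5.74, 6.05 and 5.98, against 5.86, 5.92 and 5.54 in untreated myotubes, so that 24 h alone showed a difference over 0.2, of 0.44. Averaged over the times these were 0.03 ± 0.10 with LIF (adjusted p of 0.932, 95% interval -0.19 to 0.26) and 0.15 ± 0.10 with conditioned medium (adjusted p of 0.836, -0.08 to 0.38). Cxcl2 lay in the background range on all 12 arrays, at 2.9 to 3.5 with LIF and 3.37 to 4.05 with conditioned medium, against 3.0 to 3.6 and 3.47 to 3.97 in the untreated myotubes of the same experiments. A small change of Cxcl2 would not be seen at that level. Cxcl3, a close relative, also lay in the background range on all 12 arrays.

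The interferon-type ligands Cxcl9 and Cxcl10 were slightly higher with conditioned medium at 4 and 8 h and not at 24 h. Cxcl10 stood at 6.60, 6.57 and 5.64 with conditioned medium, against 6.29, 6.18 and 5.64 in untreated myotubes at 4, 8 and 24 h, differences of 0.31, 0.39 and 0.00. Cxcl9 stood at 6.18, 6.35 and 5.12, against 5.94, 5.99 and 5.45 in untreated myotubes, differences of 0.24, 0.36 and -0.33. All of these values lay above background, and treated and untreated values overlapped across the times for both genes. The means over the times were 0.23 ± 0.13 for Cxcl10 (adjusted p of 0.764, 95% interval -0.05 to 0.52) and 0.09 ± 0.13 for Cxcl9 (adjusted p of 0.956, -0.19 to 0.37). In the LIF experiment Cxcl10 stood at 5.0, 4.6 and 3.9, against 4.7, 4.9 and 4.2 in untreated myotubes, with the 4 h LIF array alone above background. Cxcl9 stood at 5.1, 4.7 and 4.5 with LIF, against 4.9, 4.7 and 4.6, and was above background at 4 h in both arms and in neither arm later. The LIF means were -0.10 ± 0.13 for Cxcl10 and 0.03 ± 0.13 for Cxcl9, with adjusted p of 0.929 and 0.964.

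Of 7 transcription factors of interferon signalling 3 passed limma with conditioned medium, all higher, where 0.217% of all genes passed (46 of 21187). Irf7, a master regulator of type I interferon genes, was higher by 1.33, 2.80 and 1.06 at 4, 8 and 24 h with conditioned medium (adjusted p of 0.0364). Irf9, the DNA-binding partner of Stat2 in the complex that type I interferons activate, was higher by 1.28, 1.97 and 1.06 (adjusted p of 0.0143). Stat2 was higher by 0.77, 1.36 and 0.57 (adjusted p of 0.0294). Irf1, which drives Cxcl9 and Cxcl10 in response to interferon gamma, stood at 0.04, 0.17 and -0.09 and did not pass (adjusted p of 0.966). Irf2, Irf3 and Irf8 did not pass either. Cxcl11, the remaining Cxcr3 ligand, lay in the background range on all 12 arrays. With LIF 0 of the 7 factors passed limma, with a median mean change of 0.03 beside 0.00 for all genes. Limma called 1 gene in all with conditioned medium without 4 h and 0 without 8 h or without 24 h.

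**Figure D2:**
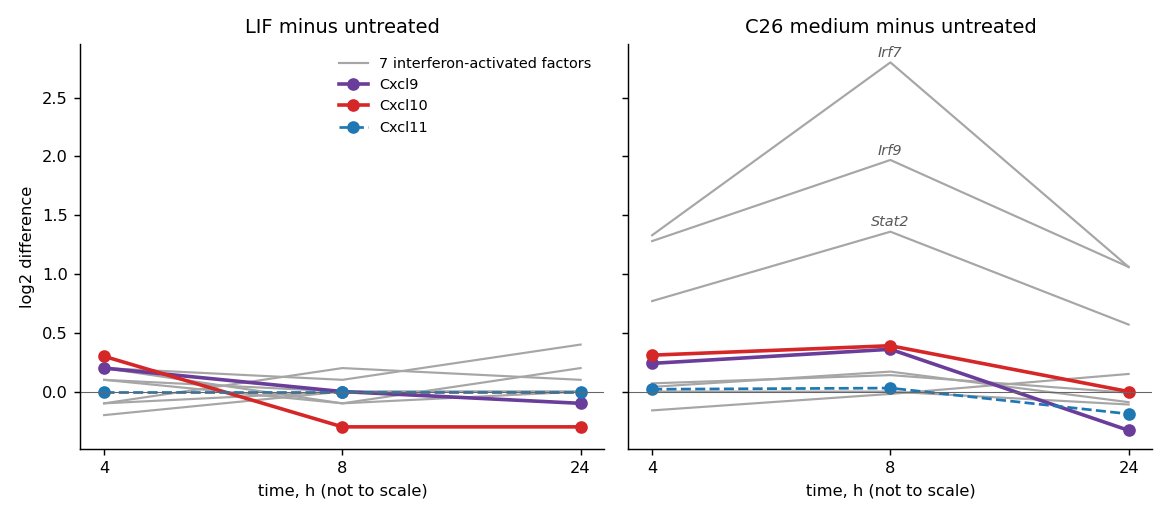
Log2 difference, treated minus untreated (y axis), at 4, 8 and 24 h (x axis, not to scale) with LIF on the left and C26 conditioned medium on the right, from 1 array per arm and time. Grey lines are the 7 factors of interferon signalling and coloured lines the Cxcr3 ligands. With conditioned medium Irf7, Irf9 and Stat2 reached 1.36 to 2.80 at 8 h, where Cxcl10 reached 0.39 and Cxcl9 0.36.

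Cxcl14 was above background on all 12 arrays and its difference widened with time under both agents. With LIF it stood at 8.1, 8.0 and 7.6 after 4, 8 and 24 h, against 8.0, 7.7 and 6.6 in untreated myotubes, differences of 0.1, 0.3 and 1.0. With conditioned medium it stood at 8.51, 9.01 and 8.50, against 8.23, 8.38 and 7.75 in untreated myotubes, differences of 0.28, 0.63 and 0.75. The conditioned medium values lay above all the untreated values of that experiment, and the LIF values overlapped the untreated ones across the times. In untreated myotubes the 8 h value differed from the 4 h value by -0.3 and 0.15, so the LIF difference at 8 h was no larger than that shift. From 4 to 24 h the untreated value fell from 8.0 to 6.6 in the LIF experiment and the treated one from 8.1 to 7.6. With conditioned medium the untreated value fell from 8.23 to 7.75 and the treated one stood at 8.51 and 8.50. The untreated value thus fell more than the treated one in both experiments, with array levels not adjusted. The median of the untreated arrays fell from 6.0 to 5.5 in the LIF experiment, less than untreated Cxcl14 did. With conditioned medium the untreated median fell from 6.71 to 6.14, more than untreated Cxcl14 did. The treated median there fell from 6.72 to 6.14 while treated Cxcl14 hardly moved. Relative to the array median, untreated Cxcl14 therefore fell in the LIF experiment only. At 24 h with LIF 22 genes of 21187, Cxcl14 itself and any ties included, were at least as high in their difference as Cxcl14. The fold there was 2.0 from the rounded log2 values, while the authors' deposited table gives 1.9.

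The mean difference of Cxcl14 over the times was 0.47 ± 0.15 with LIF (adjusted p of 0.491) and 0.55 ± 0.15 with conditioned medium (adjusted p of 0.251), and over both agents 0.51 ± 0.10 (adjusted p of 0.0754), so it passed limma in none of them. For 24 h minus 4 h, in a fit that takes the agents as the repeats and was added after the values were seen, Cxcl14 stood at 0.69 ± 0.14 with an adjusted p of 0.0567. It passed there without the dimmest 25% of genes (0.0407), with robust variances (0.0289) and with arrays centred on their median (0.0324), and the adjusted p went up to 0.441 over the 7 alternatives.

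Cxcl12, also above background on all 12 arrays, differed mainly at 24 h. With LIF it stood at 6.6, 6.8 and 6.5, against 6.4, 6.7 and 6.0 in untreated myotubes at 4, 8 and 24 h, differences of 0.2, 0.1 and 0.5. With conditioned medium it stood at 7.08, 7.39 and 7.25, against 7.04, 7.29 and 6.60 in untreated myotubes, differences of 0.04, 0.10 and 0.65. Treated and untreated values overlapped across the times with both agents. The untreated 8 h value was above the untreated 4 h value by 0.3 in the LIF experiment and by 0.25 in the conditioned medium experiment, more than the 8 h treatment difference in either. The mean over the times was 0.27 ± 0.12 with LIF and 0.26 ± 0.12 with conditioned medium, with adjusted p of 0.731 and 0.678, and 0.27 ± 0.08 over both agents (adjusted p of 0.267).

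Cxcl16 differed by at most 0.1 with LIF, at 4.9, 4.8 and 4.2, against 4.9, 4.8 and 4.1 in untreated myotubes, and lay in the background range on all of these arrays but the untreated one at 4 h. With conditioned medium it was above background in both arms and stood at 5.35, 5.74 and 5.38, against 5.32, 5.35 and 5.29 in untreated myotubes. Its 8 h difference of 0.39 was therefore the only one above 0.1. The mean over the times was 0.17 ± 0.09 with conditioned medium (adjusted p of 0.752) and 0.03 ± 0.09 with LIF (adjusted p of 0.929).

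**Figure D3:**
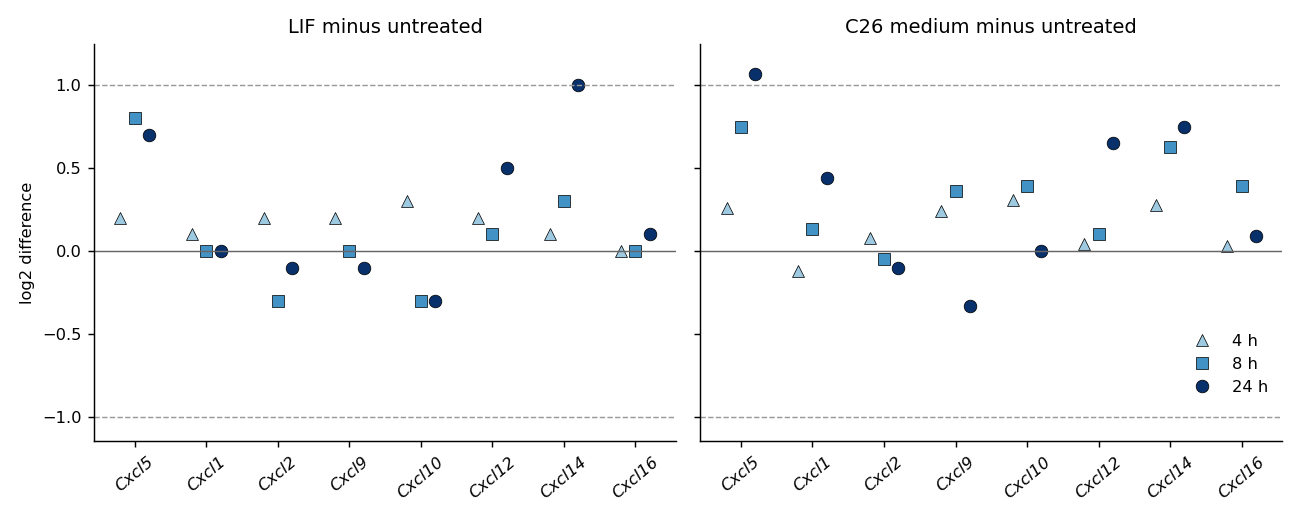
Log2 difference, treated minus untreated (y axis), of each CXC chemokine gene (x axis) at 4, 8 and 24 h with LIF on the left and C26 conditioned medium on the right. Each point is 1 treated and 1 untreated array, and dashed lines mark 2-fold. Cxcl14 reached 1.0 with LIF at 24 h and Cxcl5 reached 1.07 with conditioned medium at 24 h, and all other points lie between -0.33 and 0.8.

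By size, 0 of the 8 genes were at least 1.5-fold higher at 4 h, where 0.316% of all genes were with LIF and 0.349% with conditioned medium. At 8 h Cxcl5 alone was past 1.5-fold with LIF (0.302% of all genes), and Cxcl5 and Cxcl14 were with conditioned medium (0.76% of all genes). At 24 h these were Cxcl5 and Cxcl14 with LIF (0.75% of all genes) and Cxcl5, Cxcl12 and Cxcl14 with conditioned medium (1.2% of all genes). At least 2-fold higher at 24 h were Cxcl14 with LIF (0.104% of all genes) and Cxcl5 with conditioned medium (0.236% of all genes). For Cxcl14 this rests on a difference of 1.0 between values with 1 decimal, and the authors' deposited fold is 1.9. The lowest difference of any of the 8 was -0.33, for Cxcl9 with conditioned medium at 24 h. The median difference of the 8 at 4, 8 and 24 h was 0.20, 0.00 and 0.05 with LIF and 0.16, 0.38 and 0.27 with conditioned medium, beside 0.00 for all genes each time. Between untreated 8 h and 4 h arrays, where no agent was given, 1.2% of all genes in the LIF experiment and 0.25% in the conditioned medium experiment differed at least 1.5-fold in either direction, and 0 of the 8 did.

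Over the times, limma called 0 of the 8 genes with LIF, where it called 0 of 21187 genes, and 0 of the 8 with conditioned medium, where it called 0.217%. At an unadjusted p under 0.05 these were 3 of 8 with LIF (Cxcl5, Cxcl12 and Cxcl14; 6.82% of all genes) and 2 of 8 with conditioned medium (Cxcl5 and Cxcl14; 7.48% of all genes). For the conditioned medium minus the LIF response limma called 0 of the 8 and 0 of all genes, with 0 of the 8 and 4.48% of all genes at an unadjusted p under 0.05. That difference was 0.13 for Cxcl5 (95% interval -0.36 to 0.61), 0.09 for Cxcl14 (-0.38 to 0.55), -0.00 for Cxcl12 (-0.38 to 0.37) and 0.33 for Cxcl10 (-0.07 to 0.73).

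**Figure D4:**
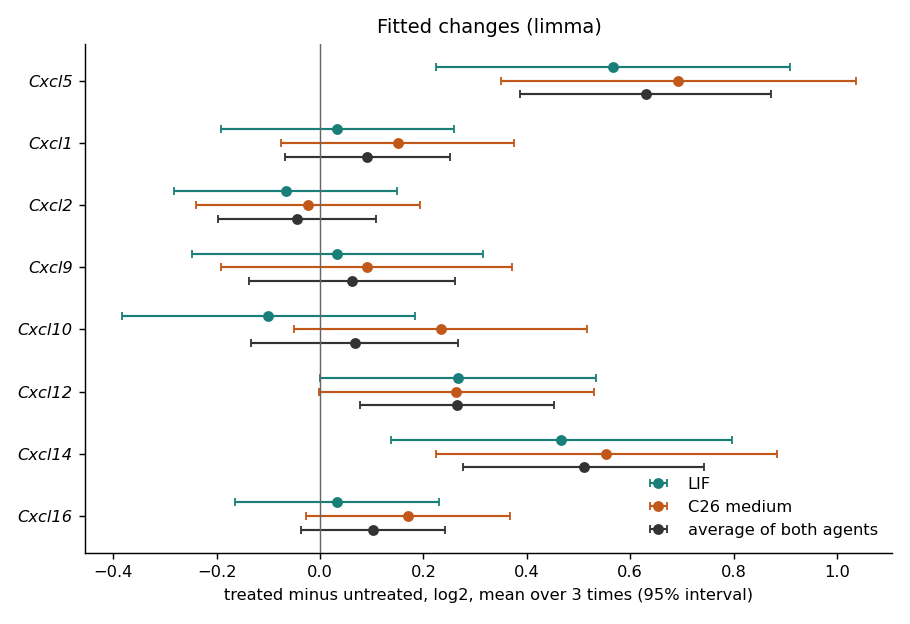
Mean log2 difference over 4, 8 and 24 h, treated minus untreated (x axis), of each CXC chemokine gene (y axis) with LIF, with C26 conditioned medium and averaged over both, with bars for the 95% interval of the limma fit. The intervals are not adjusted for the number of genes, the fit takes the times as repeats, and the average was added after the values were seen. The averaged interval lies above 0 for Cxcl5 (0.39 to 0.87), Cxcl14 (0.28 to 0.74) and Cxcl12 (0.08 to 0.45), of which Cxcl14 and Cxcl12 did not pass limma. It includes 0 for the other 5 genes.

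None of the 8 genes passed limma for the change of the response from 4 to 24 h. For 24 h minus 4 h over both agents Cxcl14 (0.69), Cxcl5 (0.66 ± 0.18) and Cxcl12 (0.46 ± 0.14) lay above 0, with adjusted p of 0.0567, 0.189 and 0.277. Cxcl10 (-0.46 ± 0.19) and Cxcl9 (-0.44 ± 0.18) lay below 0, with adjusted p of 0.603 and 0.607. Limma called 0 of the 8 and 0.401% of all genes, with 5 of the 8 and 7.44% of all genes at an unadjusted p under 0.05.

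**Figure D5:**
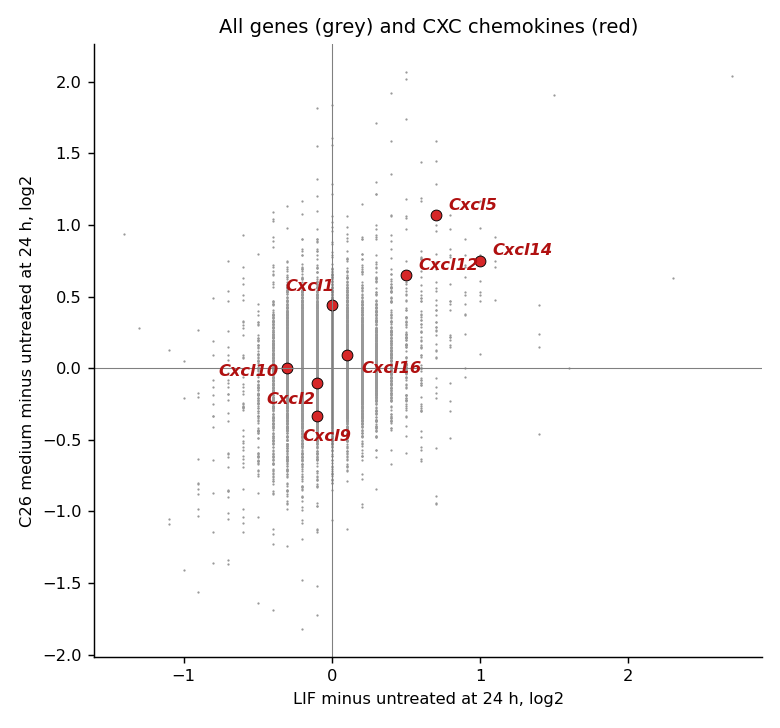
Log2 difference at 24 h of each of 21187 genes, LIF minus untreated on the x axis and C26 conditioned medium minus untreated on the y axis, with the CXC chemokine genes in red. Grey points fall in columns because the LIF values have 1 decimal. Cxcl5, Cxcl12 and Cxcl14 sit at the upper right, with differences of at least 0.5 on both axes, and the other 5 lie between -0.33 and 0.44 on both.

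Genes with the pattern most like Cxcl5 and Cxcl14, the members that reached 2-fold on the deposited log2 values, were sought over the 6 differences among 16909 other genes. Nearest to Cxcl5 were the interferon-induced membrane protein gene Ifitm1 (Euclidean distance of 0.415), Adamtsl1 (0.419) and the kininogen gene Kng2 (0.45). Ifitm1 was higher by 0.2, 0.4 and 0.8 with LIF and by 0.21, 0.76 and 1.07 with conditioned medium. Nearest to Cxcl14 were Nsg1, the endosomal neuronal gene (0.212), the cortisone-activating enzyme gene Hsd11b1 (0.255) and the lectin gene Clec2d (0.272). Hsd11b1 was higher by 0.1, 0.4 and 0.9 with LIF and by 0.13, 0.64 and 0.90 with conditioned medium. These are descriptions over 6 points that share their arrays.

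Markers of unfused mononucleated cells had a higher summed level and a higher mean log2 level in the treated array of every pair. The summed linear level was 3090, 3620 and 2280 with LIF, against 2900, 3290 and 1740 in untreated myotubes at 4, 8 and 24 h. With conditioned medium it was 7040, 8020 and 6730, against 6670, 6650 and 4590 in untreated myotubes. The mean log2 level at 24 h was 7.78 with LIF, against 7.63, and 9.08 with conditioned medium, against 8.92. All 6 markers lay above background on all 12 arrays, and their differences at 24 h ran in both directions. Ly6a (0.7 with LIF and 0.96 with conditioned medium), Pdgfra (0.5 and 0.41) and Pax7 (0.1 and 0.45) were higher with both agents, Mki67 (-0.4 and -0.60) and Cd34 (-0.4 and -0.16) were lower with both, and Myf5 differed by 0.4 and -0.10. Pdgfra alone of them passed limma over both agents (0.39 ± 0.06, adjusted p of 0.022). Their part in the chemokine differences was not tested.

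The receptors of CXC chemokines showed 1 call over both agents, Ackr3, the scavenger receptor of Cxcl12, which was higher at every time, by 0.2, 0.2 and 0.2 with LIF and by 0.25, 0.61 and 0.54 with conditioned medium (0.33 ± 0.06, adjusted p of 0.0418). It passed with neither agent alone (adjusted p of 0.642 with LIF and 0.062 with conditioned medium). Cxcr4, the signalling receptor of Cxcl12, was higher by 0.23, 0.34 and 0.72 with conditioned medium without passing (adjusted p of 0.15) and differed by 0.1, -0.2 and 0.2 with LIF. Cxcr6, the receptor of Cxcl16, was lower by 0.73 and 1.19 at 8 and 24 h with conditioned medium and did not pass (adjusted p of 0.268), and it lay above background on 7 of 12 arrays. Cxcr2, the receptor of the neutrophil attractants, lay in the background range on all 12. Over both agents limma called 0 genes in all when any 1 time was left out. Of the 8 receptors 0 passed with LIF or with conditioned medium alone, and the medians of their means were -0.02 and 0.12, beside 0.00 and -0.00 for all genes.

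Of the 7 other CXC ligands 0 passed limma with either agent, and the medians of their means were -0.10 with LIF and -0.02 with conditioned medium. Cxcl3, the platelet chemokine genes Pf4 and Ppbp, Cxcl11 and Cxcl15 lay in the background range on all 12 arrays. Cxcl17 lay above it on all 12 and Cxcl13 on 11 of 12. Among 12 NF-kB factors and inhibitors Bcl3, a cofactor of NF-kB, was the 1 gene to pass limma with conditioned medium, where 0.217% of all genes passed. It was higher by 0.37, 1.09 and 0.93 (adjusted p of 0.0327). With LIF it was higher by 0.4, 0.6 and 0.4 without passing (adjusted p of 0.331). Nfkbia, the inhibitor gene that NF-kB itself switches on, stood at 0.16, 0.13 and 0.01 with conditioned medium and at 0.0 at all 3 times with LIF. Of 17 cytokine and Toll-like receptor genes and their adaptors and kinases, 0 passed with either agent, and over both the adaptor gene Myd88 passed (0.24 ± 0.04, adjusted p of 0.0292). Of 4 genes of chemokine messenger RNA decay and 6 proteases that cut or shed chemokines, 0 passed with either agent or over both. Of 7 genes of chemokine-binding heparan sulfate proteoglycans, Sdc1 alone passed, over both agents (0.23 ± 0.04, adjusted p of 0.0452). Over both agents limma called 0.505% of all genes with all 3 times, and 0 without any 1 of them.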

How the data were processed

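C2C12 myotubes were profiled on 12 Affymetrix mouse gene 1.0 ST arrays, grouped by their titles. The authors deposited log2 expression values per Entrez gene, made with RMA per the submitters' processing notes. No source used here names a version, a genome build or how probes were assigned to genes. The authors also deposited signed fold changes, which served as an alternative and matched the log2 differences within rounding in 100.0% of values. A further 12 columns of per-sample values were not used. Symbols were updated by Entrez identifier from a RefSeq table (GRCm38.p6; 20819 matched). The number of arrays limits the precision.

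The treatment effect per agent was fitted with limma 3.58.1 (R 4.3.3) on all 12 arrays, with eBayes moderation that follows a mean-variance trend and each treated and untreated pair as a block (4 residual degrees of freedom), unfiltered, with Benjamini-Hochberg adjustment over 21187 genes and a threshold of 0.05. Contrasts over both agents and for 24 h minus 4 h (2 residual degrees of freedom) were added after the values were seen. On simulated data with 200 genes changed by 0.5 on the log2 scale among 21187, 93.0% were recovered with LIF, 93.0% with conditioned medium, 100.0% over both agents and 22.0% for 24 h minus 4 h, with 18, 23, 16 and 1 false calls. The simulated shift was the same on every treated array that received it, with independent noise. Measured differences varied between times, as for Cxcl14 with LIF, so these shares do not give the power for the members. The members and lists were chosen with earlier results of these data known, and 1 list gene is not reported here. Named genes are the members, list genes past 2-fold at any time or called by limma, and the 3 genes nearest to each member past 2-fold; the other genes named (Irf1, Irf2, Irf3, Irf8, Nfkbia, Cxcr2, Cxcr4, other CXC ligands and single markers) were picked with their values in view. The alternatives tried were filters on dim genes, eBayes without a trend or robust, quantile normalization, centring on the median, each time left out, the arrays of 1 agent, other folds and the authors' fold changes.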

Additional observations from a re-analysis of the deposited data

How the results depend on the processing

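No paired analysis beyond the main one was possible because each treated array already has its own untreated array as a block and the labels give no replicate numbers. All 144 recomputed member differences at single times moved by less than the gene's moderated residual standard deviation in the main fit. The alternatives were quantile normalization, centring and the authors' deposited fold changes. Of 352 recomputed mean changes of members, 324 kept direction and side of the threshold, 5 came to 0 (Cxcl1, Cxcl9, Cxcl16 and, under 2 alternatives, Cxcl10, all with LIF), 14 reversed, 6 (Cxcl5 over both agents) lost the call and 3 (Cxcl14 for 24 h minus 4 h) gained it. All reversed values lay within 0.1 of 0, and the cause was not tested. Without 8 h these were Cxcl2 with LIF (0.05) and over both agents (0.02), Cxcl9 with conditioned medium (-0.045), and for the conditioned medium minus the LIF response Cxcl2 (-0.06), Cxcl9 (-0.095) and Cxcl14 (-0.035). Without 4 h they were Cxcl9 with LIF (-0.05) and over both agents (-0.017), Cxcl10 over both agents (-0.053) and Cxcl12 in the difference of the agents (0.075). Without 24 h they were Cxcl2 with conditioned medium (0.015) and Cxcl1 in the difference (-0.045), after quantile normalization Cxcl9 in the difference (-0.023), and on the authors' fold changes Cxcl12 in the difference (0.014).

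Counts over all genes moved more. For LIF limma called 8 genes in place of 0 without the dimmest 25% and 12 with robust variances and after quantile normalization. For conditioned medium it called, in place of 46, 25 without the dimmest 50% and with robust variances, 13 on the authors' fold changes, 1 without 4 h, and 0 without 8 h, without 24 h, without a trend and in the 6 arrays of the agent. For the difference of the agents it called 0 genes under every alternative tried. Over both agents it called, in place of 107, 4 without a trend, 51 on the authors' fold changes and 0 without any 1 time. For 24 h minus 4 h it called, in place of 85, 136 with robust variances, 138 after centring, 26 after quantile normalization, 3 without 8 h and 0 without a trend; leaving out 4 h or 24 h and the authors' fold changes were not run for it. At 4, 8 and 24 h 13, 10 and 30 genes differed at least 2-fold with LIF. They were 114, 104 and 262 at 1.5-fold and 0, 1 and 3 at 3-fold, and without the dimmest 25% of genes 7 at 4 h and 6 at 8 h. With conditioned medium 16, 72 and 83 differed at least 2-fold, 92, 241 and 529 at 1.5-fold and 6, 29 and 16 at 3-fold.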
